A study of Mus musculus with 21 samples.

Results

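The genes described here are 40 imprinted genes of the mouse, chosen by name and matched through the platform annotation. No cutoff on their values was used, but they were chosen with earlier results of these data known. Each was represented by its own probe set, the brightest by mean over the 21 arrays where it had several, and the others served as a check. Of the 40 genes, 38 were measured in this way among 18194 genes on the array. By their listed imprinting in the mouse, 20 were classed as paternally and 17 as maternally expressed, beside Gnas, whose transcripts differ in their parental origin. Whether these classes hold in the cells used here was not tested. Zrsr1 had no probe set under its own name. H19 was reached only through a probe set assigned to both Mir675 and H19, the host transcript of that microRNA, so it was read apart from the 38 and is called the H19 probe set below.

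An imprinted gene is transcribed mainly from the copy inherited from 1 parent. For most such genes the choice is set by DNA methylation laid down in the egg or sperm at control regions, and it is kept in the embryo by factors such as ZFP57, TRIM28 and DNMT1. Many imprinted genes act on fetal and placental growth: paternally expressed ones such as Igf2 and Dlk1 tend to promote it, and maternally expressed ones such as Igf2r, Cdkn1c, Grb10 and Phlda2 tend to restrain it. An array probe set measures the summed transcript of both alleles, so none of the values below says which allele was read or whether an imprint was kept.

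The cells were CGR8, 1 line of mouse embryonic stem cells, and the labels name no genetic change or transgene. The treated aggregates were embryoid bodies of days 2, 3 and 5 in medium labelled 20% IMDM with ascorbic acid (vitamin C, AA) at 100 µM, and their controls were embryoid bodies of the same days in that medium without it. Undifferentiated cells at day 0 in medium labelled 10% GMEM, without ascorbic acid, formed the seventh group. Hanging drops with 500 cells in 25 µL gave the aggregates, and each of the 7 groups had 3 biological replicates. Only cultures in which AA increased beating at later days were kept by the submitters. Signals are on the log2 scale, where a step of 1 is a doubling, and each difference is given with its standard error in the limma fit.

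All 8 pluripotency markers had mean signals above 4.5, taken here as the low end of the array's range, on every day. Array medians were 6.05 to 6.19, so a mean above 4.5 does not by itself show expression. From day 3 to day 5 without AA, 6 of the 8 markers fell and 1 rose (9.24% and 9.08% of all genes). Their summed signal (log2 of the sum) was 10.13 to 10.50 in day 5 control aggregates and 14.21 to 14.26 in day 3 control aggregates. Correlations between arrays of 1 group were 0.966 to 0.995. The array of day 0 replicate 1 correlated at 0.969 and 0.966 with its group, against 0.989 between those other arrays, and at 0.982 with day 2 control replicate 1. There, 6 members lay 1 log2 unit or more from the mean of the other day 0 arrays, so counts against day 0, and the members named there whose call changed, are also given without it. Replicate 3 of day 3 lay nearer to day 2 in both arms, and results that change without it are given so. The number of arrays limits the precision of every value.

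From day 3 to day 5 without AA, more of the imprinted genes were called than between the other successive days. Of 38 members, 22 were called (57.9%; limma, adjusted p under 0.05 over all genes), 18 higher and 4 lower at day 5, against 18.3% of all genes (9.08% higher and 9.24% lower). Igf2, Asb4, Dlk1, Cdkn1c, Mest and Phlda2 had the largest rises, and Atp10a, Calcr, Magel2 and Snrpn were the 4 that fell. Of the 20 paternally expressed members 10 rose and 2 fell, and of the 17 maternally expressed members 7 rose and 2 fell. The median difference was 0.47 over the members, 1.07 over the paternally and 0.17 over the maternally expressed ones, and -0.03 over all genes. Without day 3 replicate 3 in both arms 15 rose (6.16% of all genes) and 3 fell (5.88%), and Calcr, Copg2, Ndn and Zim1 were no longer called. Of 11 called members with a further probe set of their own, 9 had another one called in the same direction and 0 had one called in the opposite direction.

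**Figure D1:**
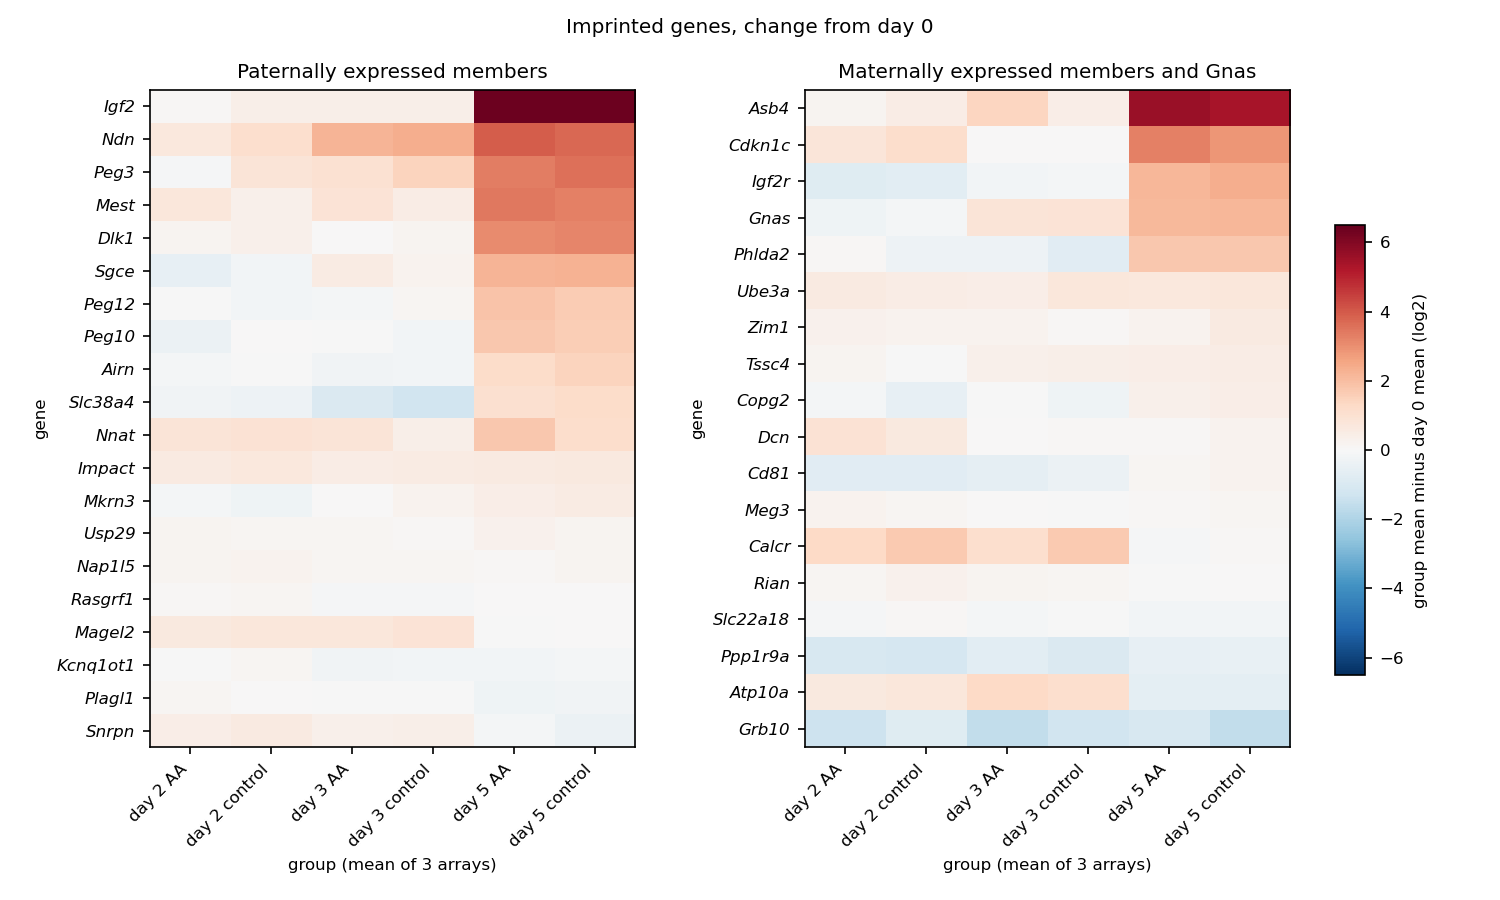
Group mean minus day 0 mean (log2, colour) for the 38 measured imprinted genes (rows), with paternally expressed genes at left and maternally expressed genes and Gnas at right. Columns are the AA and control groups of days 2, 3 and 5, each a mean of 3 arrays, and the strongest colours are those of Igf2 and Asb4 in both day 5 groups.

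The day 5 aggregates also differed in cell type markers, at a step where 9.08% of all genes rose and 9.24% fell. Of 10 mesenchyme and fibroblast markers 10 rose (summed signal 13.39 to 13.79 in day 5 control aggregates and 10.34 to 10.79 in day 3 control aggregates). Of 9 measured trophoblast markers 5 rose (13.56 to 13.85 at day 5 and 10.31 to 11.02 at day 3). Krt8 weighed most in this sum, with control means of 13.28 at day 5 and 9.98 at day 3. Elf5 (5.45 and 5.12), Krt7 (6.76 and 6.65) and Ascl2 (6.19 and 6.43) differed little. Tpbpa, which defines the spongiotrophoblast, was at 4.17 at day 5 and 4.37 at day 3, under the low end. Of 10 markers of extraembryonic endoderm 6 rose (11.54 to 12.17 at day 5 and 10.15 to 10.31 at day 3), with Afp at 5.42 and 5.22. Neural markers rose in 0 of 7 cases and fell in 2. In whole aggregates, fewer or more cells of a type and less or more RNA per cell cannot be told apart, and the part of these cell types in the changes of imprinted genes was not tested.

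Among the paternally expressed growth genes, Igf2 changed most. Igf2, which encodes the insulin-like growth factor of the embryo, stood at 13.26, 13.38 and 13.37 on the day 5 control arrays and at 7.33, 7.50 and 7.21 on the day 3 control arrays. The arrays of each day lay within 0.3 log2 units and the days did not overlap. The rise was 5.99 ± 0.14 (63.6-fold, limma adjusted p = 1.34e-16), and the second Igf2 probe set rose by 3.17 ± 0.47. Dlk1, a membrane protein that holds back adipocyte differentiation, had 9.31, 10.22 and 9.31 at day 5 and 6.77, 6.54 and 6.60 at day 3. This was a rise of 2.98 ± 0.22 (7.87-fold, adjusted p = 5.98e-09), with no overlap and 1 higher array among the day 5 controls. Mest, a predicted hydrolase of the mesoderm, had 12.46, 12.48 and 12.57 at day 5 and 9.49, 9.77 and 9.85 at day 3, which is 2.80 ± 0.17 (6.96-fold, adjusted p = 3.84e-10). Its day 5 arrays were the closer group, and the groups were far apart.

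Other paternally expressed members rose less. Peg3, a zinc finger protein linked to growth and maternal behaviour in mice, stood at 13.32, 13.34 and 13.19 at day 5 and 11.58, 11.69 and 10.11 at day 3, and rose by 2.16 ± 0.40 (4.46-fold, adjusted p = 0.000659). The day 3 arrays were spread by the low replicate 3, and still none reached a day 5 value. Of 5 Peg3 probe sets 3 rose (by 2.16 to 2.40), while the differences of the remaining ones were 0.21 and 0.10. Those remaining ones had means of 3.28 to 3.75 in all groups, under the low end. The retrotransposon-derived Peg10 (3.36-fold), its neighbour Sgce of the sarcoglycan family (4.07-fold), the amino acid transporter Slc38a4 (5.41-fold), the antisense RNA Airn (3.10-fold) and necdin, Ndn (2.61-fold), were also called. Peg12 had 5.74, 5.76 and 5.01 at day 5 and 4.06, 3.91 and 4.03 at day 3 in the low range, so its difference of 1.50 ± 0.16 carries no fold.

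The maternally expressed members that rose included several restrainers of growth. Asb4, which encodes a component of a ubiquitin ligase, had 9.30, 10.53 and 10.47 in day 5 control aggregates and 5.04, 5.45 and 5.13 in day 3 control aggregates. This rise of 4.89 ± 0.33 (29.7-fold, limma adjusted p = 2.04e-09) was the largest of a maternally expressed member, and replicate 1 was the lowest of the day 5 arrays. Cdkn1c, the cyclin-dependent kinase inhibitor p57, had 11.15, 11.32 and 10.31 at day 5 and 7.93, 8.16 and 8.13 at day 3 (2.85 ± 0.29, 7.23-fold, adjusted p = 4.79e-07). Every day 5 array exceeded every day 3 array by more than 2 log2 units. Phlda2, a pleckstrin homology protein that limits placental growth in mice, had 11.55, 12.20 and 12.40 at day 5 and 9.19, 9.57 and 9.80 at day 3 (2.53 ± 0.34, 5.78-fold, adjusted p = 2.04e-05). Igf2r, the receptor that clears IGF2 for breakdown in lysosomes, had 11.44, 11.75 and 11.04 at day 5 and 8.99, 9.19 and 8.68 at day 3 (2.46 ± 0.24, 5.49-fold, adjusted p = 3e-07). For both genes the groups were well separated, and replicate 3 was the lowest Igf2r array on each day.

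Smaller rises were those of Gnas, the stimulatory G protein subunit (2.37-fold), Copg2 of the vesicle coat (1.64-fold), the tetraspanin Cd81 (1.51-fold) and the zinc finger gene Zim1 (1.43-fold). Of these, the Gnas difference was called with its brightest probe set and with 0 of its 4 others. The falls were led by Atp10a, a phospholipid flippase, with 5.66, 5.33 and 5.22 at day 5 and 6.87, 7.22 and 7.24 at day 3 (-1.71 ± 0.27, adjusted p = 0.000113). Calcr, the calcitonin receptor, had 6.06, 6.01 and 5.35 at day 5 and 7.12, 6.97 and 8.11 at day 3 (-1.59 ± 0.44, adjusted p = 0.0147). The Calcr groups did not overlap, although replicate 3 was the lowest of one and the highest of the other.

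**Figure D2:**
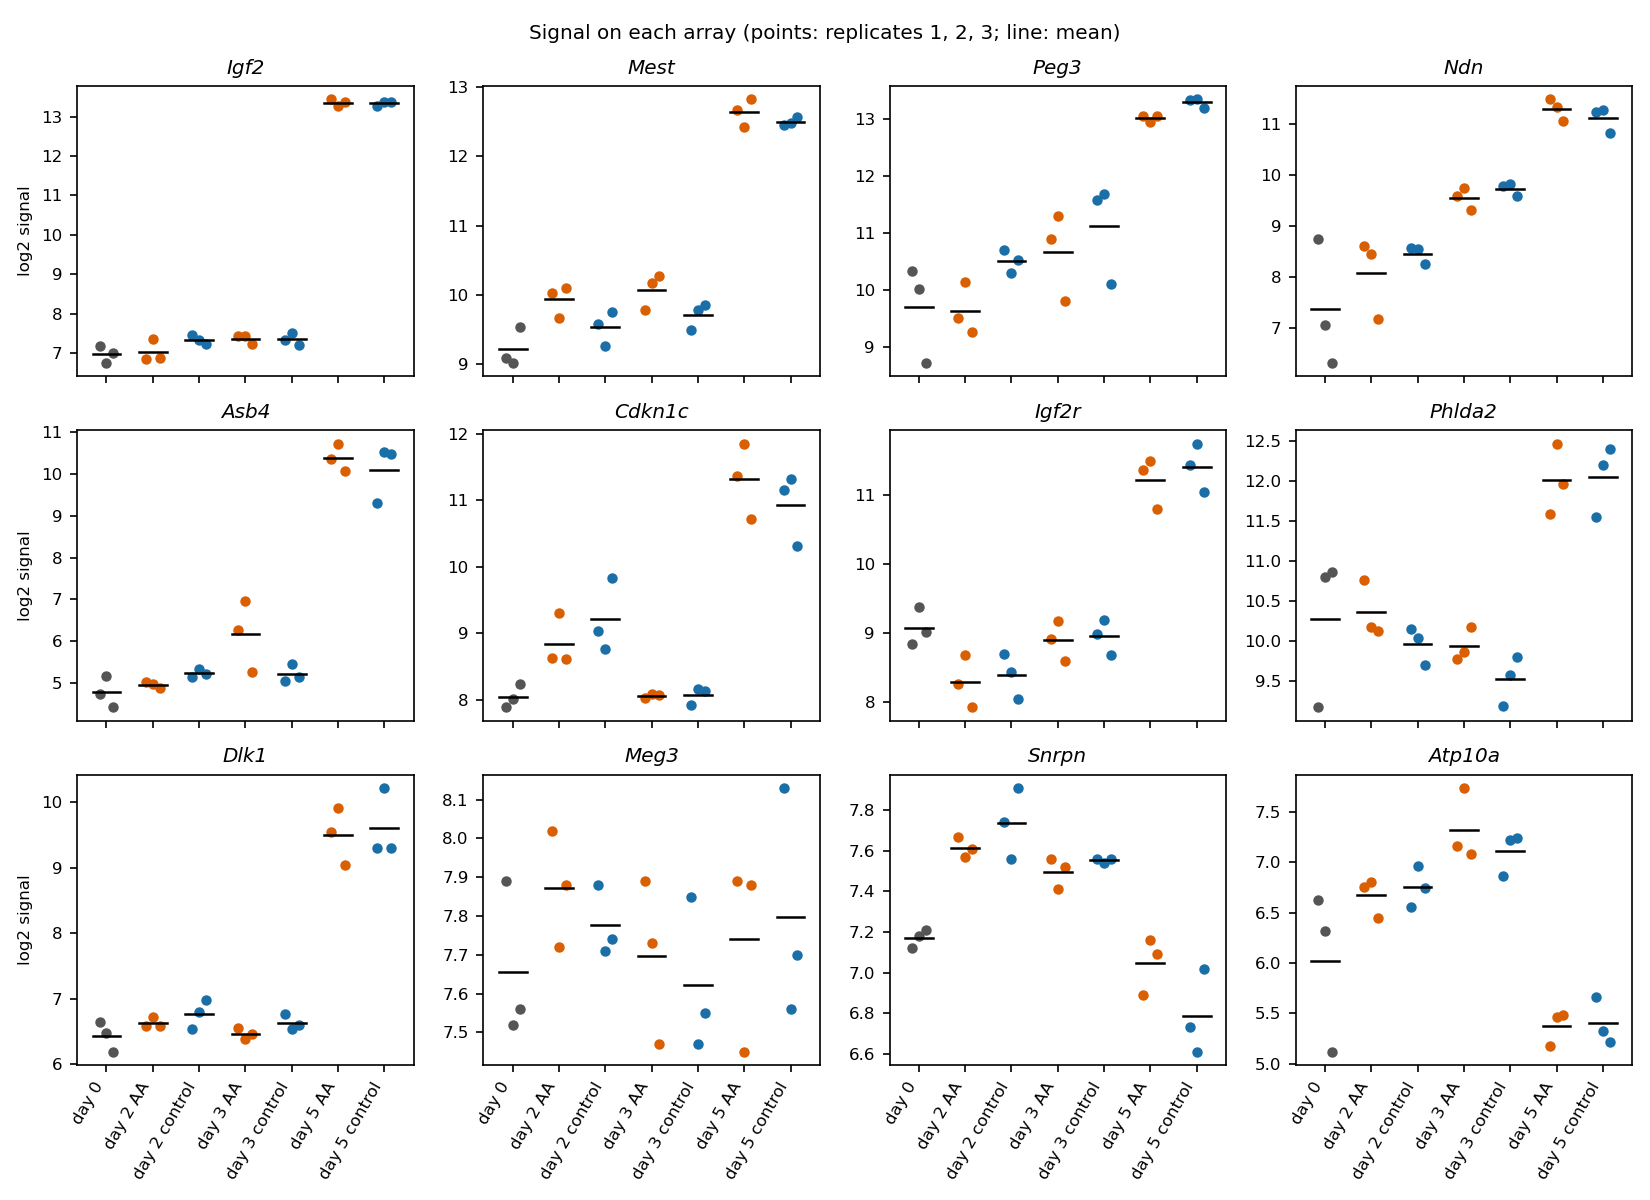
Log2 signal of 12 imprinted genes on each array, with day 0 in grey, AA groups in orange and control groups in blue, replicates 1 to 3 from left to right and the group mean as a line. The vertical scale differs between panels; Igf2, Asb4, Dlk1, Cdkn1c, Mest, Peg3, Igf2r and Phlda2 are highest in both day 5 groups, Snrpn and Atp10a are lower at day 5 than at day 3, and Meg3 overlaps in all groups.

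Neighbouring imprinted genes did not all move alike. Promoter windows are printed for Igf2, for Igf2r with Airn, for Peg3, and for Dlk1 with Meg3, because these are the genes whose levels are compared within a shared domain. The sequences are the 250 bases before the RefSeq transcription start in mouse build GRCm38.p6, read on the gene's own strand, with capitals marking CpG dinucleotides, the sites of methylation. Igf2 has 4 such windows and Meg3 has 2; the window richest in CpG is shown. They lie at chr7:142658805-142659054 (minus strand, Igf2), chr17:12769707-12769956 (minus strand, Igf2r), chr17:12741061-12741310 (plus strand, Airn), chr7:6730420-6730669 (minus strand, Peg3), chr12:109452573-109452822 (plus strand, Dlk1) and chr12:109540746-109540995 (plus strand, Meg3).
Igf2: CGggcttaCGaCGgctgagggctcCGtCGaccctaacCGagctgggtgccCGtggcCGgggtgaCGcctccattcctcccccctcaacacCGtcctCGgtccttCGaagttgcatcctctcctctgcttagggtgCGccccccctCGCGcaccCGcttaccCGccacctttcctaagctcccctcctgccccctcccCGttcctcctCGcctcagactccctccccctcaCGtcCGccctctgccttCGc
Igf2r: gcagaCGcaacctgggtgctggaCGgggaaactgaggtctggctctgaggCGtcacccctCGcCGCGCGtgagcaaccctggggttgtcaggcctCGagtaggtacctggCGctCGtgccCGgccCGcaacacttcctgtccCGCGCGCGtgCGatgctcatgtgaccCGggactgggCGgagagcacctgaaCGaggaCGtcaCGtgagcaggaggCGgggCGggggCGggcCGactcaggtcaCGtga
Airn: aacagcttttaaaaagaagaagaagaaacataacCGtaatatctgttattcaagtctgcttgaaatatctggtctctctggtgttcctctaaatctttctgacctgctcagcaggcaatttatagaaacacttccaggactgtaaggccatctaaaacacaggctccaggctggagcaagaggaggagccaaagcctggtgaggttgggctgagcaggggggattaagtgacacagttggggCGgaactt
Peg3: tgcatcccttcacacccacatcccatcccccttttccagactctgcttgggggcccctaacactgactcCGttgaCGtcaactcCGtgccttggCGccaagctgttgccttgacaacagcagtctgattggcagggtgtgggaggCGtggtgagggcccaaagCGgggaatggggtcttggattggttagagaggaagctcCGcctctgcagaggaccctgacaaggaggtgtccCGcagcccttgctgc
Dlk1: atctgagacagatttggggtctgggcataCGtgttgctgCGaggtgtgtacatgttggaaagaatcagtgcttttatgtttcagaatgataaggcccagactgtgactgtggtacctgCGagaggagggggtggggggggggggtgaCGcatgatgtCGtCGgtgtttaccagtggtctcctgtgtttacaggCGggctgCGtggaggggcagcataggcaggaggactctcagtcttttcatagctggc
Meg3: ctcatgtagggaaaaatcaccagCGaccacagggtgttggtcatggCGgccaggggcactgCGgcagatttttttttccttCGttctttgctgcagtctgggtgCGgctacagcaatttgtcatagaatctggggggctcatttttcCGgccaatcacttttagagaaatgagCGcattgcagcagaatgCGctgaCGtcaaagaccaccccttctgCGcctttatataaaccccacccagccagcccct
The number of CpG was 22 for Igf2, 27 for Igf2r, 2 for Airn, 8 for Peg3, 8 for Dlk1 and 10 for Meg3. The Peg3 window shares 163 of its bases with that of Usp29, which is read from the opposite strand.

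Of the 40 genes, 34 matched the RefSeq promoter table, with 52 windows; Cdkn1c, Dcn, H19, Impact, Peg10 and Sgce were not in it. The median number of CpG per window was 9 for these genes and 6 for all 32851 windows. Taking the richest window of each gene, the median was 14 over the 15 members that rose at day 5 and 13 over the 18 that did not. The hexamer TGCCGC, the letters that ZFP57 binds when their CpG is methylated, was searched on both strands and itself contains a CpG. It was found in 8 of the 52 windows (15.4%), against 8.68% of all windows. Of the printed windows only that of Meg3 holds it, at position -190 from the start and on the opposite strand. Such a match is a description of the letters and not of binding, and the germline control regions of most of these domains lie outside the windows.

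In the Dlk1 and Meg3 domain, Dlk1 rose while its maternally expressed noncoding neighbours gave no call. Meg3 had 8.13, 7.56 and 7.70 in day 5 control aggregates and 7.85, 7.47 and 7.55 in day 3 control aggregates, and the days overlapped (0.17 ± 0.17, limma adjusted p = 0.583). All 11 Meg3 probe sets lay between -0.19 and 0.21, and the 4 probe sets of Rian, the next noncoding RNA of the cluster, between -0.11 and 0.09, with 0 calls. The difference between Dlk1 and Meg3 themselves was not tested. In the Igf2r domain, the receptor and Airn, the paternal noncoding RNA transcribed across Igf2r on the opposite strand, both rose. Airn had 6.68, 7.05 and 7.15 at day 5 and 5.26, 5.22 and 5.51 at day 3, with no overlap (1.63 ± 0.16, adjusted p = 3.08e-07). Of 5 Airn probe sets 4 were called (1.03 to 2.51) and the fifth differed by 0.20 ± 0.11. A probe set assigned to both genes differed by -0.01 ± 0.13, and the files do not give the strand of the probes, so signals of overlapping transcripts cannot be told apart.

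In the Peg3 domain, Usp29, a deubiquitinase gene that starts beside Peg3, had 6.35, 6.03 and 6.64 at day 5 and 6.44, 6.34 and 6.0 at day 3. The Usp29 groups overlapped (0.08 ± 0.14, limma adjusted p = 0.802), and its 2 probe sets differed by 0.08 and 0.11. The maternally expressed Zim1 had 5.40, 5.25 and 6.01 at day 5 and 5.01, 4.98 and 5.13 at day 3 (0.51 ± 0.16, adjusted p = 0.0317). This call was lost in 6 of 14 alternatives. In the Igf2 domain, the H19 probe set had 7.86, 7.24 and 7.78 at day 5 and 5.69, 5.10 and 5.70 at day 3. In a fit over every probe set, in which 13.2% were called, it rose by 2.13 ± 0.26 (4.38-fold, adjusted p = 6.25e-06).

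**Figure D3:**
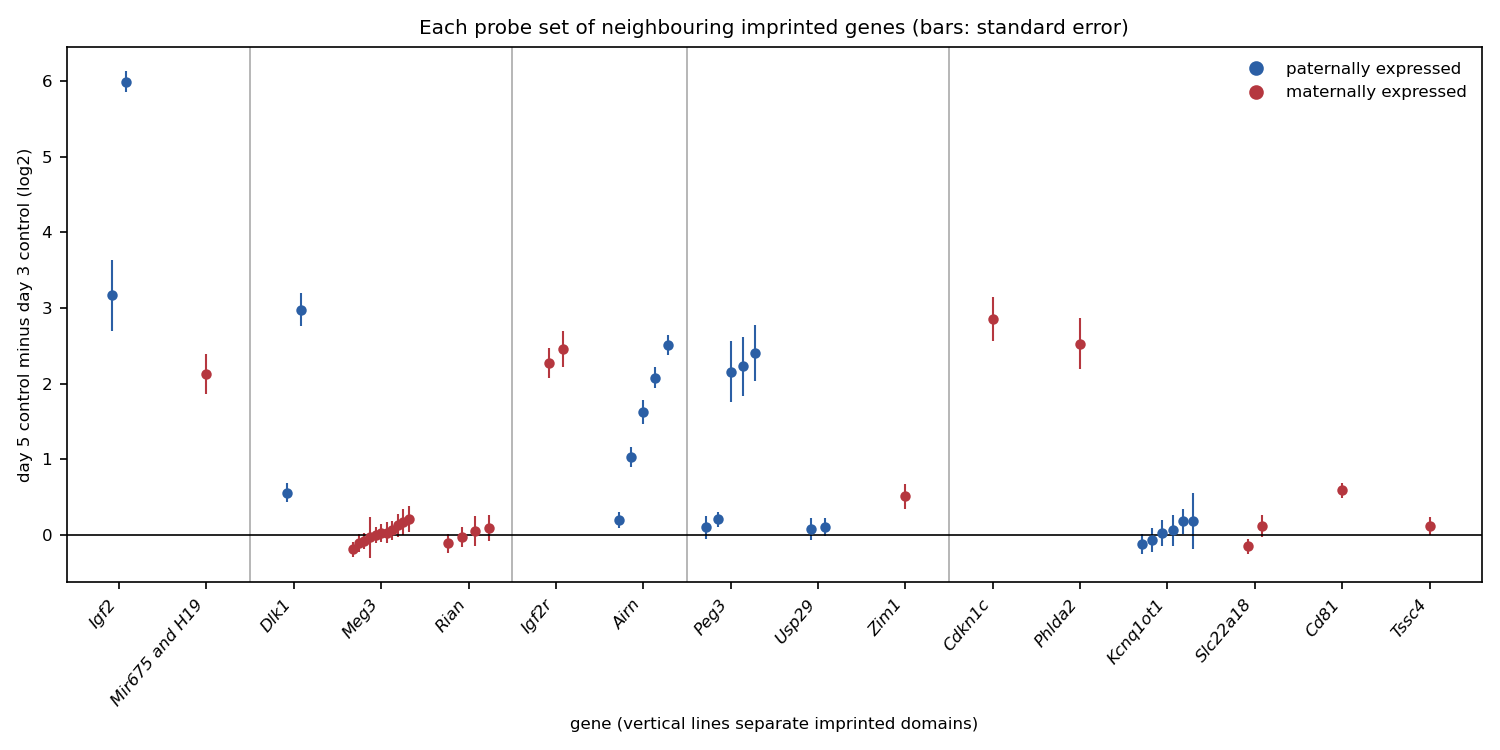
Difference between day 5 control and day 3 control (log2, points) with its standard error (bars) for each probe set of imprinted genes in 5 domains, paternally expressed in blue and maternally expressed in red. Points of Igf2, Dlk1, Igf2r, Cdkn1c and Phlda2 lie above 0, whereas those of Meg3, Rian, Usp29, Kcnq1ot1 and Slc22a18 lie around it.

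In the Kcnq1ot1 domain, 3 of 6 members rose and 0 fell, where 9.08% of all genes were higher and 9.24% lower. Kcnq1ot1, the paternal noncoding RNA that silences this domain in cis, had 7.34, 7.01 and 7.32 in day 5 control aggregates and 6.99, 7.24 and 7.34 in day 3 control aggregates. Its difference was 0.03 ± 0.17 (limma adjusted p = 0.937), and its 6 probe sets lay between -0.12 and 0.19. The maternally expressed Cdkn1c and Phlda2 rose as given above, and Cd81 had 11.46, 11.60 and 11.62 at day 5 and 10.88, 11.01 and 11.02 at day 3 (0.59 ± 0.10, adjusted p = 0.00039). The transporter gene Slc22a18 (-0.15 ± 0.10) and Tssc4 (0.12 ± 0.12) were not called. Cdkn1c and Phlda2 thus moved by more than 2 log2 units beside 3 domain members whose differences were within 0.2.

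The Snrpn and Ube3a domain, the mouse counterpart of the Prader-Willi and Angelman region, split in direction. Of its 7 members 2 rose and 3 fell (9.08% and 9.24% of all genes). Ndn, a growth-restraining protein of neurons, had 11.24, 11.27 and 10.83 at day 5 and 9.78, 9.82 and 9.58 at day 3 (1.39 ± 0.41, limma adjusted p = 0.0209). Magel2, of the same MAGE family, had 7.27, 7.03 and 6.99 at day 5 and 8.15, 8.05 and 7.83 at day 3 (-0.91 ± 0.23, adjusted p = 0.00708). The groups of both genes were apart, in opposite directions. Snrpn, which encodes a splicing protein of the SmN type, had 6.73, 6.61 and 7.02 at day 5 and 7.56, 7.54 and 7.56 at day 3 (-0.77 ± 0.12, adjusted p = 0.000101). Probe sets assigned to both Snurf and Snrpn, which share a transcript, fell by 0.57, 1.71 and 1.49 in 3 cases, while the one with the highest signal differed by -0.11 ± 0.14. The ubiquitin ligase gene Ube3a (0.02 ± 0.19) and the zinc finger gene Mkrn3 (0.34 ± 0.21) were not called.

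The first step, from day 0 to day 2 without AA, held 8 member calls (21.1%), 6 higher and 2 lower, against 11.8% of all genes (4.8% higher and 6.99% lower). Every comparison with day 0 also differs in medium and in hanging-drop culture, which cannot be told apart from time. Calcr rose most, at 7.44, 7.01 and 7.73 in day 2 control aggregates and 7.21, 5.01 and 4.91 in day 0 cells (1.68 ± 0.44, limma adjusted p = 0.0171). Here the groups overlapped through day 0 replicate 1. Cdkn1c had 9.04, 8.77 and 9.83 at day 2 and 7.89, 8.02 and 8.24 at day 0 (1.16 ± 0.29, adjusted p = 0.0114), with no overlap. Nnat, the proteolipid neuronatin, had 7.51, 7.04 and 7.57 at day 2 and 6.39, 6.44 and 6.41 at day 0 (0.96 ± 0.27, adjusted p = 0.0241), and it kept its place above day 0 on every array. Magel2 had 7.90, 7.60 and 8.06 at day 2 and 7.79, 6.61 and 6.89 at day 0 (0.76 ± 0.23, adjusted p = 0.0354), and overlapped through the same day 0 array.

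Of the other day 2 calls, Impact, a regulator of translation, had 11.34, 11.02 and 11.09 at day 2 and 10.18, 10.41 and 10.87 at day 0 (0.66 ± 0.15, limma adjusted p = 0.00648). Snrpn had 7.74, 7.56 and 7.91 at day 2 and 7.12, 7.18 and 7.21 at day 0 (0.57 ± 0.12, adjusted p = 0.00391). Both were separated from day 0 on all arrays. Of the 2 other Impact probe sets, 0 were called and 1 differed in the same direction. Ppp1r9a, the actin-binding neurabin, had 7.36, 7.34 and 7.11 at day 2 and 7.88, 8.80 and 8.44 at day 0 (-1.10 ± 0.18, adjusted p = 0.000469). Cd81 had 10.67, 10.52 and 10.69 at day 2 and 11.18, 11.42 and 11.47 at day 0 (-0.73 ± 0.10, adjusted p = 0.000178). The falls of these members also showed no overlap.

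These counts depended on the arrays in the fit. Without day 0 replicate 1, 15 members were called, 9 higher (7.73% of all genes) and 6 lower (12.7%), among them all 8 above and 7 more. Ndn then rose by 1.78 ± 0.30 (3.43-fold, limma adjusted p = 0.000206) and Atp10a by 1.04 ± 0.26, while Igf2r fell by 0.80 ± 0.26, Phlda2 by 0.87 ± 0.26, Copg2 by 0.85 ± 0.18 and Slc38a4 by 0.68 ± 0.20. Igf2 then rose by 0.47 ± 0.15. In a fit of the day 2 control and day 0 arrays alone, with all 6 kept, only Nnat was called (1.09% of all genes). On the array of day 0 replicate 1, Grb10 read 11.73 (9.07 and 9.84 on the other arrays), Ndn 8.74 (7.05 and 6.31), Phlda2 9.17 (10.80 and 10.86) and Slc38a4 9.94 (11.23 and 10.68). Magel2 and Calcr, given above, also stood apart there, and such gaps were found for 5.19% of all genes.

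Between day 2 and day 3 without AA, 3 members were called (7.89%), 1 higher and 2 lower, against 5.81% of all genes (4.86% higher and 0.945% lower). Gnas had 12.10, 12.18 and 11.50 in day 3 control aggregates and 11.14, 11.11 and 10.47 in day 2 control aggregates (1.02 ± 0.20, limma adjusted p = 0.0052). Replicate 3 was the lowest on both days, and the groups did not overlap. Of the 4 other Gnas probe sets, 0 were called and 3 differed in the same direction. Cdkn1c had 7.93, 8.16 and 8.13 at day 3 and 9.04, 8.77 and 9.83 at day 2 (-1.14 ± 0.29, adjusted p = 0.0236), so its day 2 rise was followed by a fall before the larger rise of day 5. Slc38a4 had 9.10, 9.53 and 9.50 at day 3 and 10.24, 9.97 and 10.62 at day 2 (-0.90 ± 0.23, adjusted p = 0.0267). Without replicate 3 of the day 2 controls, or replicate 1 or replicate 2 of the day 3 controls, only Gnas was called (1.42% to 3.08% of all genes).

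Set against day 0, 23 members were called in day 5 control aggregates (60.5%), 20 higher and 3 lower, while 29.9% of all genes were called (15.9% higher and 14% lower). The median difference was 0.56 over the members and -0.04 over all genes. The day 0 arrays read 7.17, 6.75 and 6.99 for Igf2, 4.72, 5.17 and 4.41 for Asb4 and 9.08, 9.01 and 9.53 for Mest. They read 6.65, 6.47 and 6.19 for Dlk1, 8.74, 7.05 and 6.31 for Ndn and 10.34, 10.03 and 8.73 for Peg3. All lay below the day 5 control arrays of the same gene given above. Apart from Igf2 (6.37 ± 0.14), Asb4 (5.33 ± 0.33), Mest (3.30 ± 0.17) and Dlk1 (3.18 ± 0.22), the largest rises were those of genes that had climbed over several days. Ndn stood at 7.37, 8.46, 9.73 and 11.11 as means of days 0, 2, 3 and 5 and ended 3.75 ± 0.41 above day 0 (13.4-fold, limma adjusted p = 6.2e-07). Peg3 stood at 9.70, 10.51, 11.13 and 13.28 and ended 3.58 ± 0.40 above it (12.0-fold, adjusted p = 9.48e-07). With all arrays, the single steps of these genes up to day 3 were not called, whereas without day 0 replicate 1 the day 2 rise of Ndn was, as given above. Without that array 22 of the 23 members were called against day 0, 20 higher (15.6% of all genes) and 2 lower (15.7%). Ndn then ended 4.43 ± 0.30 above day 0 (adjusted p = 5.45e-10) and Peg3 3.90 ± 0.42 above it (adjusted p = 3.72e-07). Tssc4 (0.48 ± 0.12) and Ube3a (0.76 ± 0.19) were called here and in no single step.

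Grb10, an adaptor that dampens insulin and IGF receptor signals, was the largest of the 3 falls. It had 8.52, 9.01 and 8.36 in day 5 control aggregates and 11.73, 9.07 and 9.84 in day 0 cells (-1.58 ± 0.47, limma adjusted p = 0.0141). The groups did not overlap, and the fall rested on day 0 replicate 1: without it the difference was -0.82 and the adjusted p = 0.0946. Ppp1r9a had 7.75, 8.16 and 7.76 at day 5 and 7.88, 8.80 and 8.44 at day 0 (-0.48 ± 0.18, adjusted p = 0.0429). Its groups overlapped, and the call was lost in 7 of 14 alternatives. Snrpn differed by -0.38 ± 0.12 (adjusted p = 0.0186). Impact, counted among the rises (0.64 ± 0.15), had another probe set called the opposite way, and averaging its probe sets gave -0.11.

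Over the 3 successive steps, 25 members were called at least once, against 28.6% of all genes, and 13 were not. The 13 were Meg3, Rian, Plagl1, Grb10, Slc22a18, Kcnq1ot1, Usp29, Nap1l5, Dcn, Tssc4, Mkrn3, Rasgrf1 and Ube3a. Plagl1, a zinc finger gene of the imprinted growth network, ran from 5.82 to 6.60 over all arrays. Nap1l5 stayed at the low end, from 3.68 to 4.15. Dcn, the proteoglycan decorin, had 6.88, 6.71 and 6.62 at day 5 and 6.48, 6.56 and 6.69 at day 3, while the 10 mesenchyme markers rose. A missing call does not show that these genes were unchanged.

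The comparison of AA with control asked which imprinted genes vitamin C, a cofactor of the TET enzymes that oxidise methylated cytosine, changed in the aggregates. With the groups taken as unpaired, 0 of 38 members were called at day 2 (0.0055% of all genes), day 3 (0% of all genes), day 5 (0.0605%) or on the average of days (0.0275%) by limma. At an unadjusted p under 0.05 there were 3, 2, 3 and 2 members in that order, where 7.37%, 1.48%, 3.24% and 4.82% of all genes passed. The sample titles number the replicates but name no pairing of AA with control cultures. The same-day arrays of equal replicate number deviated together, so a paired fit was read beside the unpaired one. It called 2 members at day 2 (2.64% of all genes), 0 at day 3 (0.198%), 0 at day 5 (0.956%) and 2 on the average (1.94%). Those were Peg3 and Mest each time, both paternally expressed. At an unadjusted p under 0.05 the paired fit passed 9, 9, 4 and 7 members in the same order, and 17.8%, 4.57%, 7.82% and 13.1% of all genes.

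Peg3 read 9.51, 10.15 and 9.27 in day 2 AA aggregates and 10.70, 10.31 and 10.53 in day 2 control aggregates. All AA arrays lay below all control arrays, and replicate 2 differed least. The paired difference was -0.87 ± 0.15 (1.83-fold lower, limma adjusted p = 0.0044), and the unpaired adjusted p = 0.674. At day 3 it read 10.90, 11.30 and 9.82 with AA and 11.58, 11.69 and 10.11 without, and at day 5 it read 13.05, 12.94 and 13.05 with AA and 13.32, 13.34 and 13.19 without. Peg3 was thus lower with AA in 9 of 9 pairs, by -1.26 to -0.14, and its average difference was -0.53 ± 0.08 (adjusted p = 0.0026 paired and 0.962 unpaired). Of its other probe sets, 1 was also called (-0.80 ± 0.14 at day 2, adjusted p = 0.00851) and 3 were not (-0.39 ± 0.23, -0.22 ± 0.11 and 0.02 ± 0.08, adjusted p = 0.448, 0.382 and 0.941). Those with -0.22 and 0.02 had means of 3.28 to 3.75 in all groups, under the low end.

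Mest read 10.03, 9.66 and 10.10 in day 2 AA aggregates and 9.58, 9.25 and 9.75 in day 2 control aggregates. Each AA array lay above its paired control, but the groups overlapped. The paired difference was 0.40 ± 0.08 (1.32-fold, limma adjusted p = 0.0125), and the unpaired adjusted p = 0.642. At day 3 the values were 9.78, 10.17 and 10.27 with AA and 9.49, 9.77 and 9.85 without (0.37 ± 0.08, paired adjusted p = 0.0833), and at day 5 they were 12.68, 12.42 and 12.83 with AA and 12.46, 12.48 and 12.57 without. Mest was higher with AA in 8 of 9 pairs, with an average difference of 0.30 ± 0.05 (adjusted p = 0.00145 paired and 0.656 unpaired). Leaving out pair 1 of day 2 ended the day 2 calls of both genes (adjusted p = 0.0915 for Peg3 and 0.118 for Mest). The average calls of both were kept whichever pair was left out. The number of members called ran from 0 to 5 at day 2 (0.489% to 6.66% of all genes) and from 2 to 4 on the average (1.04% to 3.56%).

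Some cell type markers differed with AA in the same paired day 2 comparison. The pluripotency factor gene Klf4 (-0.68 ± 0.13, limma adjusted p = 0.0109), Vim of mesenchyme (-0.63 ± 0.12), Krt8 of trophoblast (-0.48 ± 0.09) and Nes of neural cells (-0.40 ± 0.10) were lower. These were 1 of 8 pluripotency, 1 of 10 mesenchyme, 1 of 9 trophoblast and 1 of 7 neural markers, with 0 of 10 called for extraembryonic endoderm and 0 higher in any list. In the same comparison 2.64% of all genes were called. The summed signal of the mesenchyme markers was 10.04 to 10.53 in day 2 AA aggregates and 10.57 to 10.72 in day 2 control aggregates, without overlap. Vim, already called, weighed most in this sum (means 9.40 with AA and 10.04 without). The median difference of the 10 mesenchyme markers was -0.05, against -0.01 for all genes. The summed signal of the pluripotency markers was 14.39 to 14.40 with AA and 14.25 to 14.46 without. That of the trophoblast markers was 9.86 to 10.07 with AA and 9.91 to 10.59 without. For neural markers it was 9.37 to 9.53 with AA and 9.53 to 9.67 without, and for extraembryonic endoderm 10.16 to 10.46 and 10.38 to 10.54. On the average of days, where 1.94% of all genes were called, Klf4 (-0.38 ± 0.08) and Twist1 (-0.91 ± 0.13) were lower, and Sox7 (0.34 ± 0.08) and Col1a2 (0.58 ± 0.08) higher. The part of these cell types in the Peg3 and Mest differences was not tested.

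The H19 probe set, outside the 38, read 8.76, 8.10 and 8.84 in day 5 AA aggregates and 7.86, 7.24 and 7.78 in day 5 control aggregates. All AA arrays lay above all control arrays, and the 3 pairs differed by 0.90, 0.86 and 1.06. In the paired fit over every probe set the difference was 0.94 ± 0.13 (1.92-fold, limma adjusted p = 0.00135), where 0.615% of probe sets were called, and the unpaired adjusted p = 0.469. The differences at days 2 and 3 were -0.09 ± 0.13 and 0.37 ± 0.13, and neither was called. That the AA difference varied between days had a paired adjusted p = 0.0471 and an unpaired adjusted p = 1. Without any single day 5 pair the day 5 call held, with adjusted p = 0.0151 to 0.0232, while that of the day difference did not, with adjusted p = 0.119 to 0.151. In the paired day 5 comparison over genes, Sox7 of extraembryonic endoderm (0.97 ± 0.13, adjusted p = 0.000992) and Col1a2 of mesenchyme (1.15 ± 0.14, adjusted p = 0.000406) were also higher with AA, each the only call of 10 markers, and 0 were called in the other marker lists. Of all genes 0.956% were called there. The summed signals overlapped, at 11.54 to 11.98 with AA and 11.54 to 12.17 without for extraembryonic endoderm, and at 13.43 to 13.56 and 13.39 to 13.79 for mesenchyme. Their part in the H19 difference was not tested.

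**Figure D4:**
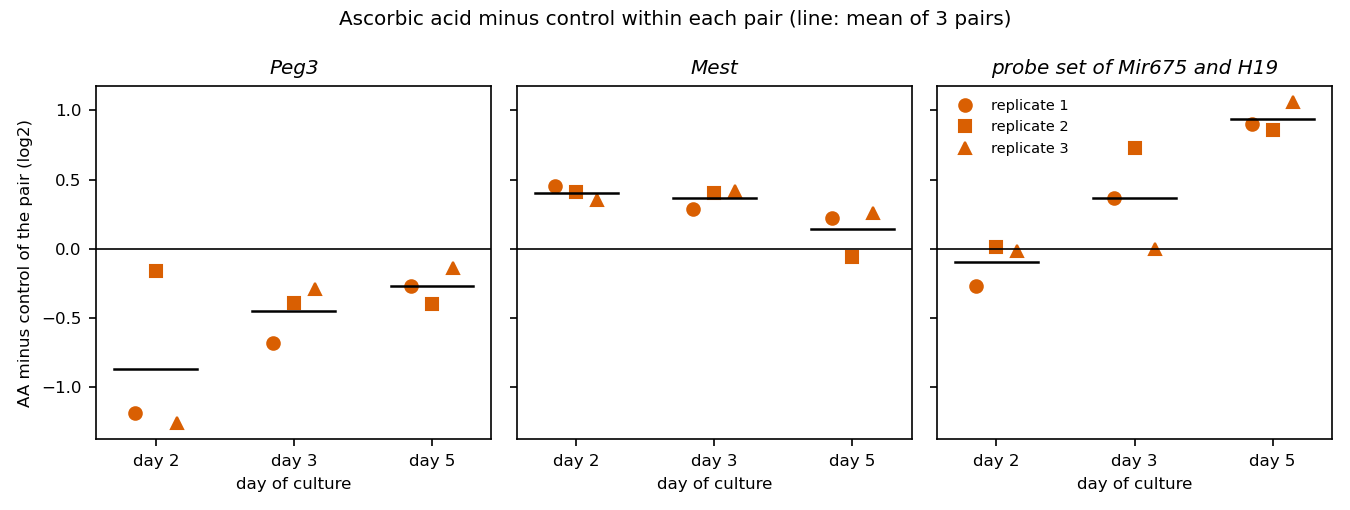
AA minus control (log2) within each of 9 pairs of equal day and replicate number, for Peg3, Mest and the probe set assigned to Mir675 and H19, with the mean of 3 pairs as a line. All 9 Peg3 points lie below 0, 8 of 9 Mest points lie above 0, and the points of the H19 probe set are highest at day 5.

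The remaining ligand, receptor and noncoding members gave no call for AA in either fit. Igf2 read 13.44, 13.26 and 13.36 in day 5 AA aggregates, level with the control arrays above (0.02 ± 0.11 in the paired fit, limma adjusted p = 0.995). Paired differences at day 5 were -0.19 ± 0.11 for Igf2r, -0.23 ± 0.14 for Airn, -0.06 ± 0.11 for Meg3, -0.02 ± 0.12 for Kcnq1ot1 and 0.39 ± 0.20 for Cdkn1c. Asb4 read 6.27, 6.96 and 5.25 in day 3 AA aggregates and 5.04, 5.45 and 5.13 in day 3 control aggregates. Its difference of 0.95 ± 0.23 was not called (paired adjusted p = 0.179), and replicate 3 differed least. Without that replicate in both arms it was 1.37 ± 0.23 (paired adjusted p = 0.0308), the only member call of that day.

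Genes of imprint maintenance and DNA methylation, de novo methyltransferases and TET enzymes included, were read from a list of 24, of which 22 were measured. Between day 0 and day 2 without AA, 2 rose and 5 fell, where 4.8% of all genes were higher and 6.99% lower. The de novo methyltransferase genes Dnmt3a and Dnmt3b rose by 2.15 ± 0.24 and 1.86 ± 0.30. The falls were those of Tet2 (-2.73 ± 0.30), Zfp42 (-2.26 ± 0.30), which is also a pluripotency marker, Tet1 (-1.49 ± 0.23), Eed (-0.84 ± 0.21) and Dnmt1 (-0.72 ± 0.12). Between day 2 and day 3, 0 rose and 4 fell (4.86% and 0.945% of all genes). These were Dnmt3l (-2.01 ± 0.42), Zfp42 (-1.32 ± 0.30), Dnmt3a (-1.17 ± 0.24) and Trim28 (-0.26 ± 0.07). Between day 3 and day 5, 1 rose and 7 fell (9.08% and 9.24% of all genes), among them Zfp42 (-3.17 ± 0.30), Dnmt3l (-2.44 ± 0.42) and Dnmt3b (-1.99 ± 0.30), with a list median of -0.18 against -0.03 for all genes. Dnmt3a (-1.02 ± 0.24) and Trim28 (-0.28 ± 0.07) also fell at this step. The Dnmt3a mean was 8.81 in day 5 control aggregates and 8.85 at day 0, so its day 2 rise did not last. With AA, 0 were called in the unpaired fit. In the paired fit 3 were higher and 1 was lower at day 2 (2.64% of all genes in either direction), among them Dnmt3a (0.61 ± 0.10, limma adjusted p = 0.00345), Tet1 (0.54 ± 0.12) and Uhrf1 (0.41 ± 0.07), the partner of DNMT1, and Trim28 was the lower one (-0.26 ± 0.06).

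Other genes of the IGF axis were read from a list of 16, of which 15 were measured. It holds the ligand gene Igf1 beside genes of receptors, binding proteins, adaptors and RNA-binding proteins. From day 3 to day 5 without AA, 5 rose and 3 fell, where 9.08% of all genes were higher and 9.24% lower. The binding protein genes moved both ways, with Igfbp4 higher by 3.16 ± 0.22 (8.92-fold) and Igfbp3 (-3.16 ± 0.59) and Igfbp2 (-1.62 ± 0.19) lower. The signalling receptor genes Igf1r (0.88 ± 0.19) and Insr (0.93 ± 0.26) also rose. With AA, the paired fit called 1 of the 15 at day 2 (2.64% of all genes), 1 at day 5 (0.956%) and 2 on the average (1.94%). These were Irs4, a receptor adaptor, lower at day 2 (-1.15 ± 0.13, limma adjusted p = 0.000203), Igf1 higher at day 5 (0.68 ± 0.13, adjusted p = 0.015), and Igfbp4 higher (0.52 ± 0.07) and Irs4 lower (-0.65 ± 0.08) on the average; the unpaired fit called 0.

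Of 35 further genes from imprinted domains 29 were measured; in control aggregates at day 5, against day 3, 5 were higher and 1 was lower (9.08% and 9.24% of all genes). The largest changes were those of Sfmbt2 (-1.72 ± 0.36), a Polycomb protein gene, Ddc (1.45 ± 0.31), the decarboxylase gene beside Grb10, and Casd1 (1.28 ± 0.19), beside Sgce. The list median was -0.07, near that of all genes. In the paired fit Ddc was higher with AA at day 2 (1.12 ± 0.18, 2.18-fold, limma adjusted p = 0.00344), as were Sfmbt2 (0.73 ± 0.18), Ampd3 (0.50 ± 0.12) and Mcts2 (0.46 ± 0.09), which makes 4 of 29 against 2.64% of all genes, while the unpaired fit called 0. Of 6 genes of the Dlk1 to Dio3 cluster 4 were measured, and Dlk1 alone was called at day 5.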

How the data were processed

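Total RNA (100 ng) was turned into labelled cRNA for an Affymetrix mouse array. The deposited values are log2 signals made by the authors with RMA (background correction, quantile normalisation, probe summary), per the submitters' processing notes, which name no version. The arrays come without a genome build, and array features carry no coordinates. Of 45101 probe sets, 34958 had 1 gene symbol, 932 several and 9211 none in the platform annotation; 34754 of those with 1 symbol matched the RefSeq table by Entrez identifier, with 0 symbols changed. Probe sets with several symbols were fitted only probe set by probe set (45037 without AFFX controls).

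In R 4.3.3 with limma 3.58.1 (lmFit, eBayes with an intensity trend) the 7 groups were fitted over 18194 genes, with Benjamini-Hochberg adjustment over all of them and a threshold of 0.05. In the paired fit, 18 treated and control arrays formed 9 blocks of equal day and replicate number. Deviations from the group mean correlated at 0.178 to 0.679 in 9 of 9 such pairs, all over 0.1, and 9 of 9 treated arrays correlated best with their own number. The replicates are biological by the labels, and the pairing rests on their numbers and these correlations. The code was tested on simulated data.

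The members and gene lists were chosen with earlier results of these data known. Members called in a comparison are given with every array; where over 8 were called, the 8 with the largest absolute log2 difference (up to 6 in each direction) are given so and the rest by count and range. The genes of the Snrpn and Kcnq1ot1 domains and Igf2, Igf2r, H19, Meg3, Airn, Cdkn1c and Peg3 are described whatever their test. Of each list, up to 3 called genes with the largest difference are named by rule. Others named, such as Dnmt1, Dnmt3b, Eed, Igf1r, Insr, Trim28 and Mcts2, were chosen after their values were seen. No fold is given where a group mean was 4.5 or lower. Alternatives were the mean of all probe sets of a gene, a filter on low signals (6 or more on 3 arrays), renewed quantile normalisation, median centring, no trend, only the groups compared, replicate blocks and leaving out each array, and, added after seeing the data, every probe set and leaving out day 3 replicate 3.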

Additional observations from a re-analysis of the deposited data

Results flagged for a closer look

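For 4 members every AA minus control pair had one sign on one day and the opposite sign on another, in 4 of 114 combinations of a member and 2 days that were examined (3.51%), against 3.11% of such combinations over all genes. Grb10 differed by -0.55 at day 2 (pairs -0.85 to -0.12) and by 0.56 at day 5 (0.22 to 0.95). Ndn differed by -0.17 at day 3 (-0.26 to -0.07) and by 0.18 at day 5 (0.06 to 0.25). Zim1 differed by 0.18 at day 3 (0.02 to 0.37) and by -0.37 at day 5 (-0.53 to -0.07). Asb4 differed by -0.27 at day 2 (-0.36 to -0.12) and by 0.95 at day 3 (0.12 to 1.51). The limma F test of whether the AA difference varied between days called none of them. Its paired adjusted p was 0.0509 for Grb10, 0.493 for Ndn, 0.356 for Zim1 and 0.246 for Asb4, and its unpaired adjusted p was 1 for each. Over the 38 members it called 0 in either fit (0.511% of all genes in the paired and 0.0055% in the unpaired fit), and at an unadjusted p under 0.05 it passed 10 in the paired fit (9.99% of all genes) and 0 in the unpaired fit (2.7%).

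For the probe set assigned to Mir675 and H19 the same F test gave a paired adjusted p = 0.0471 over all probe sets, of which 0.375% were called. The call was lost without any single day 5 pair and after renewed quantile normalisation (adjusted p = 0.072).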

How the results depend on the processing

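Of 56 member differences called between control days, 805 values under alternatives were computed: 742 kept sign and call, 62 kept the sign and lost the call, and 1 changed sign. That was Impact at day 5 against day 0, at -0.11 with the mean of all probe sets. For day 2 against day 0, 1 member was called with only the groups compared (1.09% of all genes). For day 3 against day 2, 5 were called with the filter on low signals (8.43%) and 7 with a replicate block across days (8.27%). In the paired fit (replicate block) 2 members were called for AA at day 2 (2.64%) and 2 on the average of days (1.94%); without day 3 replicate 3 in both arms these fits called 2 on the average (1.14%) and 1 at day 3 (0.0769%). Leaving out 1 pair in turn gave 0 to 5 at day 2 and 2 to 4 on the average. The cause of these shifts was not tested, except that fewer arrays or genes entered some fits. The block changed no other AA call of a member. Leaving out 1 array in turn gave 4 to 15 calls for day 2 against day 0 (6.17% to 20.4% of all genes), 1 to 3 for day 3 against day 2 (1.42% to 5.79%), 18 to 21 for day 5 against day 3 (12.2% to 16.3%), 20 to 24 for day 5 against day 0 (24.7% to 31.4%), and 0 in each unpaired AA comparison. Renewed quantile normalisation ended the paired day 2 call of Mest (adjusted p = 0.0766) and not that of Peg3 (0.000636). Rescaling moved no median of all genes by over 0.04. With 3 arrays per group and no count of molecules, small differences and signals near the low end are not resolved.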
